A study of Homo sapiens with 4 samples.

Results

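The genes described here are 35 interferon-stimulated genes, chosen by name as known members of the interferon response with earlier results of these data known. Their probes were found through the RefSeq accession that the array gives for each probe. Of the 35 genes, 34 had a probe among the 18203 genes that could be named in this way, with 50 probes in all, and IFI27 had none. Transcripts were measured in 4 cultures of Nalm-6, an established line of human pre-B leukemia cells, with 1 array for each culture: WT, the knockouts Arp5 KO and Arp8 KO, and a culture labelled Arp8 OE (Arp8 overexpression). Arp5 and Arp8 are actin-related proteins of the INO80 complex, a chromatin remodeler that moves nucleosomes. In the Arp5 KO line both alleles of ACTR5, the gene for Arp5, had been disrupted with targeting vectors. The Arp8 KO line had been made by a similar protocol with some differences. The paper reports slightly slower growth of Arp5 KO cells than of wild-type cells. It also cites earlier work in which conditional knockout of Arp8 was lethal to cells. The number of clones behind each line and the vector of the culture labelled Arp8 OE are not given in the sources used here.

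The protocol in the labels gave 20 uM heme for 12 hours to every culture, and every sample title, those of both knockouts included, named heme. For both knockouts, however, the treatment entry read no heme, and the source entry did so for Arp5 KO but named heme for Arp8 KO. The treatment of the knockouts is therefore unknown, genotype and heme cannot be told apart, and the cultures were compared by genotype. The paper describes arrays of both knockouts with and without oxidative stress, and does not state the treatment sample by sample. The probe for ACTR5 read -0.13 in WT and -4.40 in Arp5 KO, on the log2 scale defined below. For ACTR8, the gene for Arp8, both probes were lowest in Arp8 KO (-1.55 and -0.44, against -1.02 and 0.25 in WT). They were not raised in the culture labelled Arp8 OE (-1.01 and 0.23), which is therefore called by its label only. Where these probes lie relative to the disrupted parts of the genes was not determined. HMOX1, the heme oxygenase gene that heme induces, read -0.51 in WT and -2.56 in the culture labelled Arp8 OE, against -3.48 in Arp5 KO and -3.42 in Arp8 KO. All 10 markers of B-cell precursors were well above background on every array. Of 5 T-cell markers 0 to 1 were, of 5 myeloid markers 1 to 2, and of 4 erythroid markers 0 to 2, and the summed signal of each of these 3 lists was at most 0.22 times the array's 75th percentile.

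Interferons are secreted signals that cells release when they sense viral nucleic acid. Type I interferons bind the IFNAR1 and IFNAR2 receptor chains, the kinases JAK1 and TYK2 then phosphorylate STAT2, which acts with IRF9 in a complex that binds the interferon-stimulated response element (ISRE) in target promoters. The target genes encode RNA sensors, nucleases, membrane proteins and ubiquitin-like modifiers that limit viral growth, and many are transcribed at a basal level in blood cells without added interferon.

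To show the element in question, promoter stretches of 4 members are printed here. ISG20 and IFI44 are the members with the largest differences between WT and Arp8 KO, and IFIT1 and ISG15 carry a pair of element cores each and stayed within 2-fold. The sequences are from RefSeq on GRCh38.p14, plus strand, and end before the annotated transcription start. They lie at chr15:88638892-88639011 (ISG20), chr1:78649669-78649788 (IFI44), chr10:89392465-89392584 (IFIT1) and chr1:1013335-1013454 (ISG15). Capitals mark the letters GAAANNGAAA, the core of the ISRE, found on either strand.
ISG20: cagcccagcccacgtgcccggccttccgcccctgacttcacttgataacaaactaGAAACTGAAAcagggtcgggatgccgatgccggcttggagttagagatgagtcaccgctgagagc
IFI44: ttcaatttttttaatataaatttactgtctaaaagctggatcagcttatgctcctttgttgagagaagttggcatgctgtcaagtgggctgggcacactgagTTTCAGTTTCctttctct
IFIT1: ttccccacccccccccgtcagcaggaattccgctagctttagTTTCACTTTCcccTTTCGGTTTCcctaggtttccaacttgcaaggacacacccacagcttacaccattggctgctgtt
ISG15: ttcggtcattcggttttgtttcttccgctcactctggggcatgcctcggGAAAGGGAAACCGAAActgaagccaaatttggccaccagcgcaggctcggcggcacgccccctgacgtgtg
In IFI44 and IFIT1 the core reads on the opposite strand, and in ISG15 a pair of cores overlaps in a single run of capitals. The core begins 69 bases before the start in ISG20 and 18 bases before it in IFI44.

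Promoter windows, from 250 bases before to 50 bases after the start, were held for 27 of the 35 members. The ISRE core was found in 17 of these 27 promoters (63%) and in 3.65% of the 27305 promoters of the RefSeq table. The gamma-activated site, searched as TTCNNNGAA, was found in 8 of the 27 (29.6%) and in 7.88% of all promoters. Both motifs were searched on both strands. In MX1 the core began 11 bases after the annotated start, and in PARP14 it began 29 bases before it. XAF1 was among the 10 promoters in which these letters did not occur. No window was held for OAS2 or TRIM22. The 14 measured members with the core had a median difference between Arp8 KO and WT of -0.26 on the log2 scale (range -2.78 to 0.26), and the 9 without it a median of -0.34 (range -1.07 to 0.21), so that the range of the latter lay within that of the former.

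**Figure D1:**
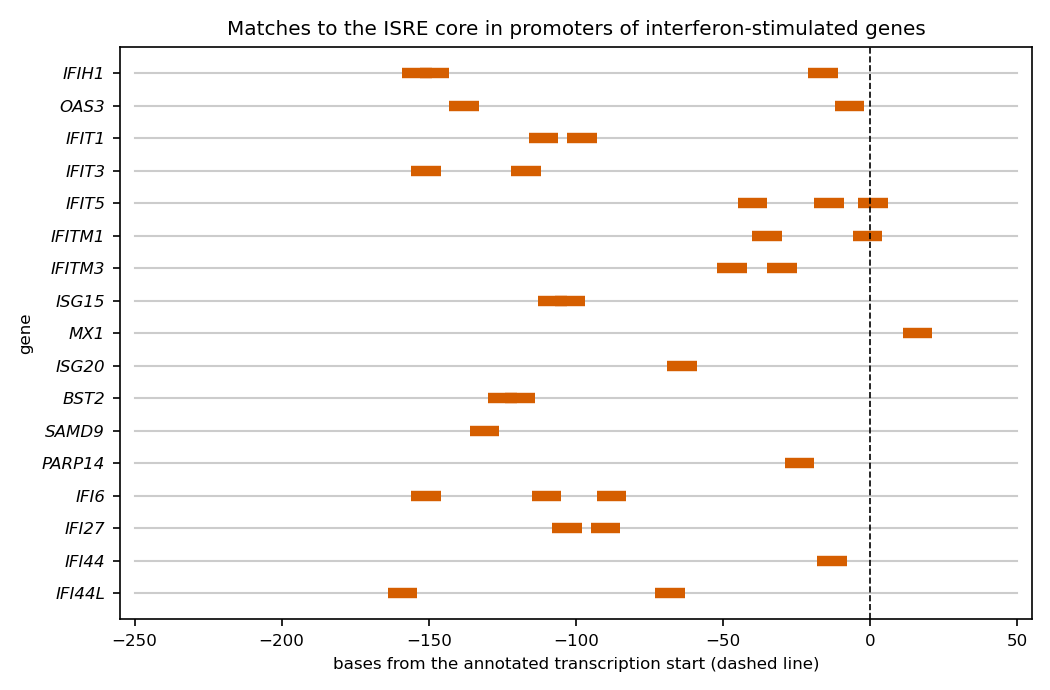
Position of each match to the ISRE core in the promoters of the 17 members that held one, in bases from the annotated transcription start (dashed line); each bar is 1 match on either strand. Most matches lie upstream of the start, and the match in MX1 begins 11 bases after it.

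Levels are given as log2 of the background-subtracted signal over the 75th percentile of the same array, so that 0 is the level of that percentile and a difference of 1 is a 2-fold difference. With 1 array per genotype there was no test and no error between cultures. The error that could be measured was that between spots of the same array. Over 177 probes printed 10 times and well above background this spot error, as an SD, was 0.08 for a difference between 2 arrays, rising from 0.07 for the brightest probes to 0.26 at levels under -4 (2 probes). No member probe was printed 10 times, so each member value below is 1 spot per array. The SD leaves out any difference between cultures of the same genotype. Where 4 levels are given in a row, they stand for WT, then Arp5 KO, then Arp8 KO, and last the culture labelled Arp8 OE. Levels of different probes are not compared with each other, since probes differ in how well they bind.

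Of the 50 member probes, 46 (31 genes) were well above background on at least 1 array and 42 (30 genes) on all 4. IFITM1, which encodes a membrane protein that blocks viral entry, OASL, a relative of the 2-5A synthetases, and RSAD2, which encodes the antiviral enzyme viperin, stayed dim, that is not well above background, on all 4. IFI44L passed on the Arp5 KO array only, at -4.83. Past 2-fold between any pair of arrays were 8 probes of 7 genes, ISG20, IFI44, MX1, OAS2, XAF1, PARP14 and TRIM22, against 13.6% of the 25460 probes measured on at least 1 array. Among probes well above background on all 4 arrays these were 7 of 42, against 8.97% of 21783. The range over the 4 arrays had a median of 0.50 for members (quartiles 0.31 and 0.80) and 0.42 for all probes (quartiles 0.27 and 0.64).

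Arp8 KO was the array on which members most often read lowest. Of the 42 member probes well above background throughout, 24 (57.1%) were lowest in Arp8 KO, 7 in the culture labelled Arp8 OE, 6 in WT and 5 in Arp5 KO. Of all probes, 28.7% were lowest in Arp8 KO. The arrays were ranked by value even where they differed by less than the spot error, as for IFIT3. Counted by gene, with the mean over probes, 18 of 30 members (60%) and 29.2% of 11163 genes were lowest there. These counts include neighbors on the genome such as OAS1, OAS3 and OAS2, which lie next to each other on chromosome 12, and MX2 and MX1, which do so on chromosome 21.

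The member with the largest difference was ISG20, which encodes an exonuclease that degrades single-stranded RNA. Its level was 2.90 in WT and 2.29 in the culture labelled Arp8 OE, against 1.48 in Arp5 KO and 0.12 in Arp8 KO. Both knockouts were low and Arp8 KO was the lowest. The difference from WT was -2.78 in Arp8 KO (6.87-fold lower), -1.42 in Arp5 KO (2.67-fold lower) and -0.62 in the culture labelled Arp8 OE (1.53-fold lower). Arp8 KO was also 2.57-fold lower than Arp5 KO and 4.49-fold lower than the culture labelled Arp8 OE, and the difference of Arp5 KO from the latter was -0.80. In a bulk sample, fewer cells that express a gene and less of its RNA per cell cannot be told apart.

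MX1 encodes a dynamin-like GTPase that blocks influenza and other viruses. It read 1.19 in WT and 1.16 in the culture labelled Arp8 OE, against -0.26 in Arp5 KO and -0.94 in Arp8 KO. The first pair were closer than the spot error, and the knockouts were well below both. Arp8 KO was 4.40-fold and Arp5 KO 2.75-fold lower than WT. Its neighbor MX2, which encodes a restriction factor of HIV-1, differed less. Its brighter probe read -0.26, -0.47, -0.57 and 0.38. The knockouts were 1.16-fold and 1.25-fold lower than WT, and the culture labelled Arp8 OE was 1.55-fold higher. The second MX2 probe gave the same directions, with differences of -0.36, -0.34 and 0.46.

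IFI44 encodes a cytoplasmic protein induced by type I interferon. Its level was 2.23 in WT and 0.62 in the culture labelled Arp8 OE, against 1.51 in Arp5 KO and -0.33 in Arp8 KO. All 3 other cultures were thus below WT. Arp8 KO was 5.92-fold lower, the culture labelled Arp8 OE 3.05-fold lower and Arp5 KO 1.64-fold lower. Set against the culture labelled Arp8 OE, Arp8 KO was lower by 1.94-fold, just under 2-fold.

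OAS2 encodes a synthetase of 2-5A, the oligonucleotide that activates RNase L, and its probes disagreed on the size of the difference. Probe A_24_P343929 read -2.13 in WT and -3.76 in the culture labelled Arp8 OE, against -3.64 in Arp5 KO and -4.39 in Arp8 KO. WT stood above the other 3, by 2.85-fold, 4.80-fold and 3.09-fold. Beside it, 1 spot was over 2-fold brighter on the WT array than on the 3 others, and its part in the WT value was not tested. With the normexp alternative, described under processing, the Arp8 KO difference from WT stayed past 2-fold (-1.10). Those of Arp5 KO (-0.82) and of the culture labelled Arp8 OE (-0.83) did not. Probe A_23_P204087 read -2.70, -2.81, -3.27 and -3.13, all within 2-fold of each other. By that probe Arp8 KO was 1.49-fold lower than WT and Arp5 KO 1.08-fold lower, the latter less than the spot error. For OAS1, another 2-5A synthetase, the levels were -1.01, -1.12, -1.53 and -1.26, and OAS3, the largest of the synthetases, read -0.82, -0.86, -1.03 and -0.70 on its brighter probe. All 5 probes of the OAS genes read lower in Arp8 KO than they did in WT, from -2.26 to -0.21. They belong to 3 neighboring genes, and of all probes 47.3% read lower in Arp8 KO.

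XAF1 encodes a pro-apoptotic antagonist of the inhibitor XIAP and had 3 probes. Probe A_23_P4286 read -0.58 in WT and -1.08 in the culture labelled Arp8 OE, against -0.64 in Arp5 KO and -1.90 in Arp8 KO. Only Arp8 KO lay past 2-fold from WT, 2.50-fold lower, and Arp5 KO was within the spot error of WT. Beside this spot 1 spot was bright on the array labelled Arp8 OE alone. Probe A_23_P4283 was 2.12-fold lower in Arp8 KO and probe A_24_P557479 was 1.73-fold lower, with Arp5 KO within 0.06 of WT on all 3. With the normexp alternative the difference of A_23_P4283 was -0.84, under 2-fold. Against the culture labelled Arp8 OE, Arp8 KO differed by -0.76 on A_23_P4283 and by -0.82 on A_23_P4286.

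PARP14 encodes an ADP-ribosyltransferase that acts in interferon and STAT6 signaling. Its brightest probe, A_24_P161018, read -0.01, -0.02, -0.49 and -0.10. Arp8 KO was thus 1.40-fold lower than WT on that probe and 1.47-fold lower on A_32_P56759, beside which 2 spots were bright on the array labelled Arp8 OE alone. Probe A_24_P920398 was faint, at -3.61, -4.12 and -4.40 on the other 3 arrays and not well above background in Arp8 KO, which put Arp8 KO at least 2.93-fold below WT. All 3 probes were lowest in Arp8 KO, and only the faint one was past 2-fold. With the normexp alternative, whose offset shrinks differences of faint probes, its difference was -0.60.

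TRIM22, which encodes a ubiquitin ligase of the tripartite motif family, was the only one of the 7 that was higher in Arp8 KO. Probe A_24_P172481 read -0.88 in WT and -0.41 in the culture labelled Arp8 OE, against -0.65 in Arp5 KO and 0.17 in Arp8 KO. Arp8 KO was the highest, 2.07-fold above WT. The second probe read -0.72, -0.64, 0.20 and -0.40, with Arp8 KO 1.90-fold above WT. Both probes lay near the 2-fold line, and with the normexp alternative the difference of A_24_P172481 was 0.83.

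**Figure D2:**
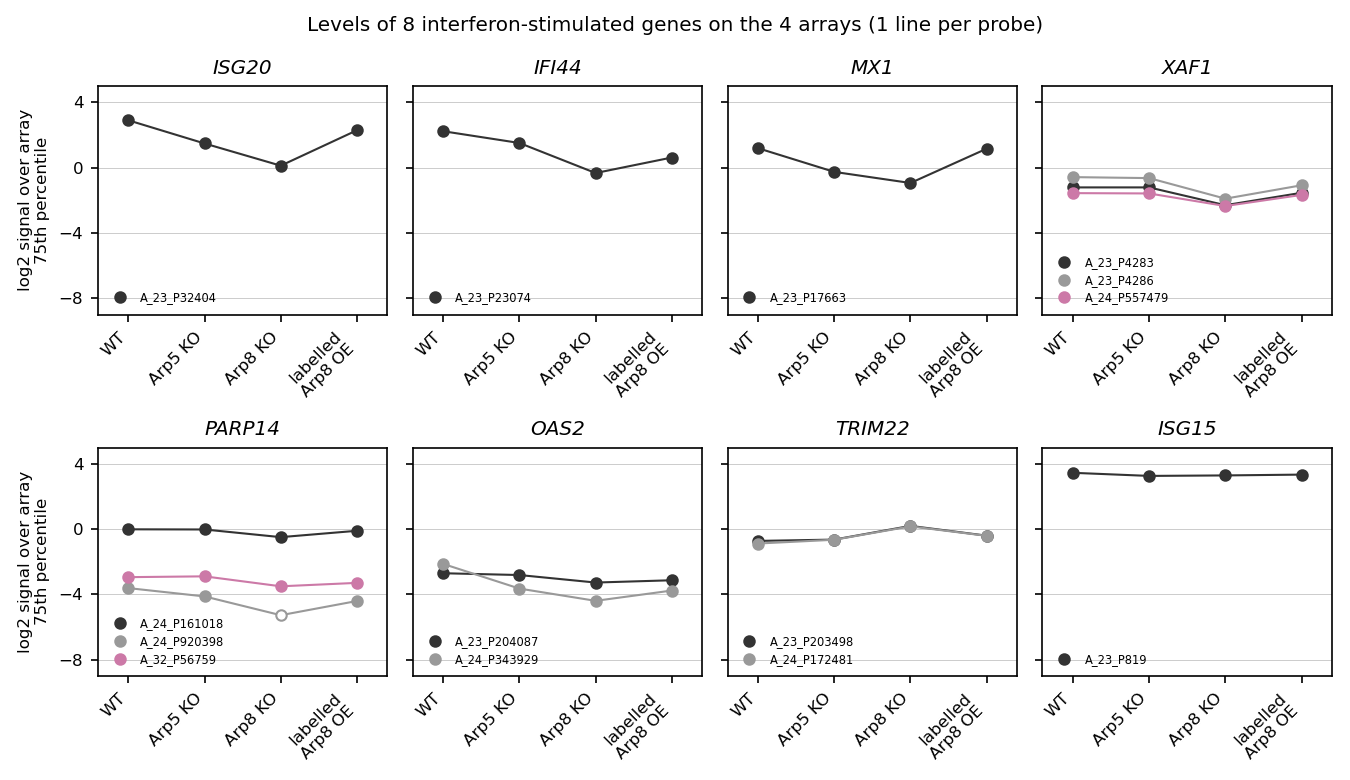
Levels of 8 members on the 4 arrays, as log2 signal over the array's 75th percentile, with 1 line per probe and 1 point per array; an open point was not well above background, and the lines only join points of a probe. ISG20, IFI44 and MX1 are lowest in Arp8 KO, TRIM22 is highest there, and ISG15 stays between 3.26 and 3.45.

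The other 24 measured members had no probe past 2-fold between any pair of arrays, by value or by bound. Over their probes the differences from WT ran from -0.47 to 0.43 in Arp5 KO (median -0.06). They ran from -0.95 to 0.26 in Arp8 KO (median -0.21) and from -0.73 to 0.63 in the culture labelled Arp8 OE (median 0.04). The low ends of -0.95 and -0.73 were bounds from a faint SAMD9 probe. On the brightest SAMD9 probe the differences were 0.05 in Arp8 KO and -0.15 in the culture labelled Arp8 OE. Among the transcription factors of the pathway, STAT2, the partner of IRF9, read -1.94, -2.18, -2.37 and -1.89. IRF1, a factor induced by interferon-gamma, read 1.26, 1.53, 1.02 and 1.37. Both were lowest in Arp8 KO. IRF7, the main inducer of interferon-alpha genes, read 3.35 in WT and 3.40 in the culture labelled Arp8 OE, against 3.57 in Arp5 KO and 3.02 in Arp8 KO. Of the 5 probes of STAT2, IRF1, IRF7 and IRF9, 4 were higher in Arp5 KO than in WT, all by less than 2-fold. In Arp8 KO 4 were lower, also by less than 2-fold. Of all probes, 12303 of 24285 were higher in Arp5 KO and 11628 of 24578 were lower in Arp8 KO. The IRF9 difference in Arp5 KO, 0.03, was under the spot error of 0.09 for that probe.

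RIGI and IFIH1 encode cytoplasmic sensors of viral RNA. In RIGI the levels were -0.27, -0.07, -0.39 and -0.49, and in IFIH1 they were -0.54, -0.65, -0.52 and -0.85. Both were thus lowest in the culture labelled Arp8 OE and not in Arp8 KO. The IFIT proteins bind foreign RNA and block its translation. IFIT1 read 0.52 in WT and 0.78 in the culture labelled Arp8 OE, against 0.95 in Arp5 KO and 0.16 in Arp8 KO, with 1 spot beside it bright on the Arp5 KO array alone. IFIT2 read 0.73, 0.36, 0.07 and 0.75 on its brighter probe. Of all probes, 47.3% read below WT in Arp8 KO and 49.3% in Arp5 KO. All 6 IFIT probes read below WT in Arp8 KO, from -0.69 to -0.07, and 5 of 6 were lower in Arp5 KO. The value of -0.69 is a bound from the fainter IFIT2 probe. Some of these differences were under the spot error of 0.09 for their probes. These were an IFIT5 probe in Arp8 KO (-0.07), and IFIT3 (-0.08) and the other IFIT5 probe (-0.06) in Arp5 KO.

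ISG15, BST2, IFITM2, IFITM3 and, on the brighter of its probes, IRF7 gave the 5 brightest mean signals, an order of probes and not of transcript amounts, and all stayed within 2-fold. ISG15, the ubiquitin-like modifier of the response, read 3.45 in WT and 3.34 in the culture labelled Arp8 OE, against 3.26 in Arp5 KO and 3.29 in Arp8 KO. In order of level, WT came first, and neighbors among the other 3 differed by less than the spot error. USP18, the protease that removes ISG15, read 0.68, 0.38, 0.59 and 1.05 on its brighter probe, highest in the culture labelled Arp8 OE. IFITM2 and IFITM3, membrane proteins that block viral entry, were slightly higher than WT on all 3 arrays, by 0.07 to 0.27. BST2, which tethers budding virus to the cell surface, read 3.33 in WT and 3.82 in the culture labelled Arp8 OE, against 3.34 in Arp5 KO and 3.59 in Arp8 KO, which put the culture labelled Arp8 OE 1.40-fold above WT. PARP9, a partner of PARP14, was 1.27-fold lower in Arp8 KO and 1.31-fold lower in the culture labelled Arp8 OE. IFI6, which encodes a protein that blocks apoptosis, was 1.30-fold lower in Arp8 KO. IRF9, IFIT3, IFIT5, SAMD9, SAMD9L and IFI35 are the remaining members within 2-fold, together with IFI44L, which was measured in Arp5 KO only, so that its differences are bounds, the largest of which put Arp8 KO at least 1.26-fold below Arp5 KO.

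**Figure D3:**
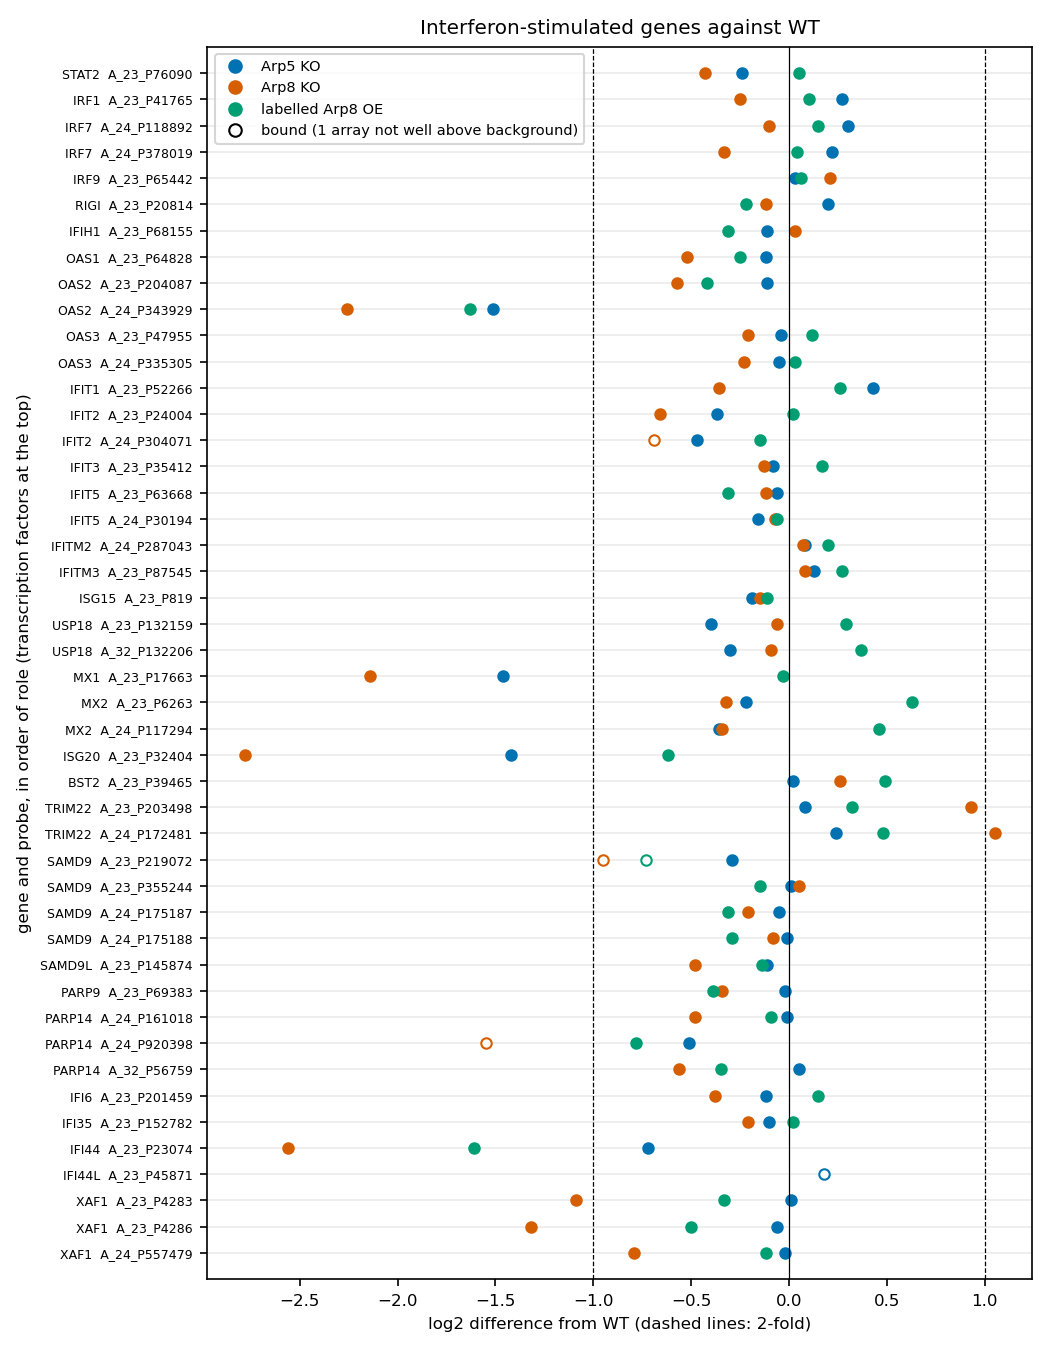
Log2 difference from WT of each of the 46 member probes above background on at least 1 array, in Arp5 KO (blue), Arp8 KO (orange) and the culture labelled Arp8 OE (green); open points are bounds and dashed lines mark 2-fold. ISG20, IFI44, MX1 and 1 probe of OAS2 lie at -2.14 or lower in Arp8 KO, and most other points lie within 2-fold of WT.

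Taking all members against WT, Arp8 KO had the most member probes past 2-fold. Of 45 member probes measured in that pair, 7 probes of 6 genes were over 2-fold lower, against 4.35% of 24578 probes, and 1 (TRIM22) was over 2-fold higher, against 3.37%. The median member difference was -0.32 (quartiles -0.57 and -0.09), and that of all probes was 0.03. In that comparison 37 member probes were below 0 and 8 above, while 11628 of all probes were below and 12950 above. In Arp5 KO, 3 of 46 member probes (ISG20, MX1 and OAS2) were over 2-fold lower, against 2.01% of 24285 probes, and 0 were higher, against 1.69%. The median there was -0.06, against 0.00 for all probes. In the culture labelled Arp8 OE, 2 of 45 (IFI44 and OAS2) were over 2-fold lower, against 2.15% of 24177 probes, and 0 were higher, against 2.96%, with a median of -0.06 against 0.00. All 3 comparisons share the WT array, so a high or low value there moves all of them together. Set against the culture labelled Arp8 OE instead, the median in Arp8 KO was -0.31. There 2 of 44 member probes (ISG20 and MX1) were over 2-fold lower, against 3.78% of 24204 probes, and 0 were higher, against 1.64%. For Arp5 KO against the same culture the median was 0.01, with 1 of 46 (MX1) over 2-fold lower, against 3.28% of 24136 probes, and 0 higher, against 2.08%. With this reference the counts of members were near the shares of all probes.

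**Figure D4:**
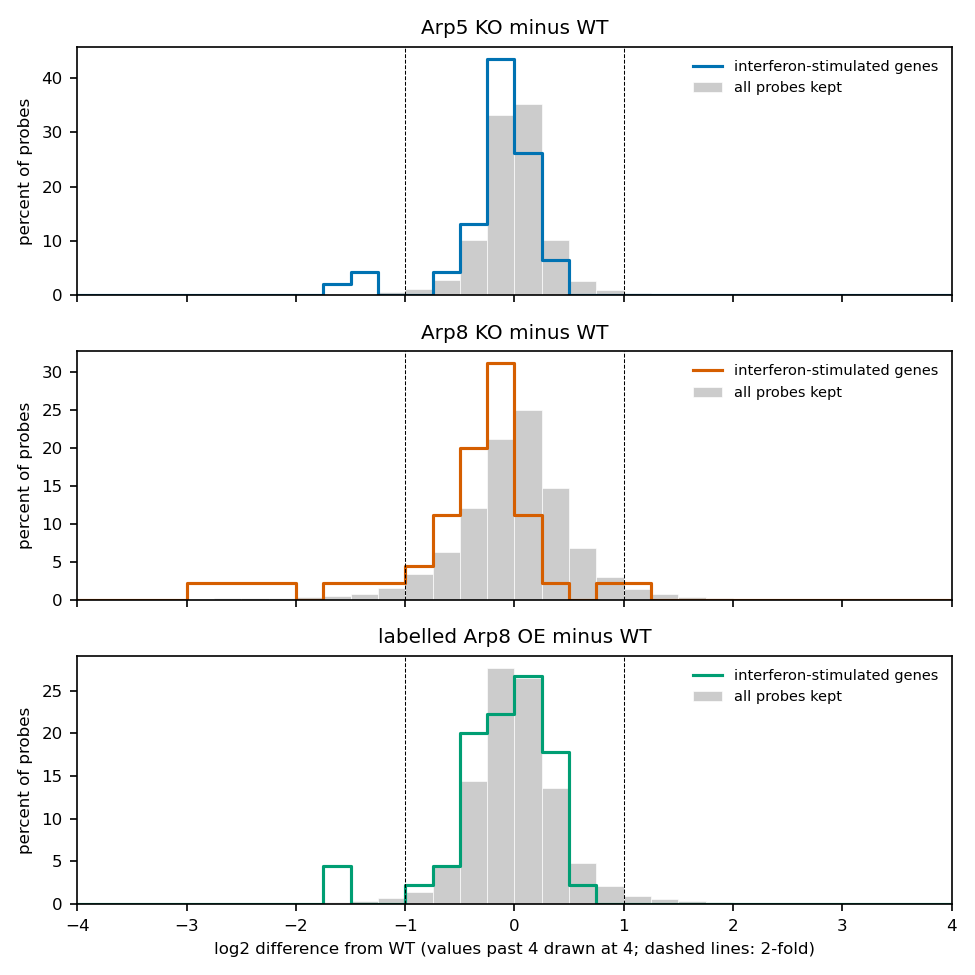
Distribution of log2 differences from WT in bins, as percent of probes, for member probes (line) and for all probes kept (gray), with dashed lines at 2-fold. In Arp8 KO the members are shifted to the left, with a median of -0.32 against 0.03, and in the other panels the medians are -0.06 against 0.00.

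Other genes of the pathway were read from a list of 95 genes, of which 93 had a probe. Of the interferon genes themselves, IFNB1, which encodes interferon-beta, was dim on all 4 arrays, and the other ligand genes with a probe were likewise dim, except IFNL2 on the knockout arrays at -4.80 and -4.56. IFNAR1 read -0.34 in WT, -0.48 in both knockouts and -0.40 in the culture labelled Arp8 OE. IFNAR2 was faint but measured on all arrays, at -4.20, -3.87, -3.50 and -4.38. JAK1 was within 0.12 of WT and TYK2 within 0.15 on all arrays and probes. These 4 genes of the signaling chain thus differed from WT by less than 2-fold on every array.

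In Arp8 KO, 4 of 116 pathway probes were over 2-fold below WT, of 3 genes, a share no higher than the 4.35% of all probes. IFNLR1, the receptor chain for interferon-lambda, was 3.24-fold lower on the probe that was measured, beside which 1 spot was bright on the WT array alone. PTPN6, a phosphatase that damps cytokine signaling, was 2.32-fold lower, also with 1 such spot beside it. GBP1, a GTPase induced by interferon-gamma, was 2.05-fold and 2.15-fold lower on its probes. In Arp5 KO, 1 of 117 was lower, against 2.01% of all probes. This was SOCS1, the feedback inhibitor of JAK kinases, which was 2.05-fold lower on its brighter probe and 1.27-fold on the other. In the culture labelled Arp8 OE, 1 of 115 was higher, against 2.96% of all probes. This was a TAPBP probe at 3.11-fold, with 2 neighboring spots bright on that array alone and the other TAPBP probes at 1.26-fold and 1.11-fold. The 46 probes of other interferon-stimulated genes had a median of -0.13 in Arp8 KO, smaller in size than that of the members.

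Genes of MHC class I presentation, which interferons also induce, lay in the other direction. Of their 20 probes, 16 were higher than WT in Arp8 KO, with a median of 0.49 and a range of -0.22 to 0.96, and 0 were past 2-fold. HLA-B read 5.65 in WT and 6.03 in the culture labelled Arp8 OE, against 6.03 in Arp5 KO and 6.61 in Arp8 KO on probe A_23_P125107. B2M, the shared light chain, read 5.43, 5.54, 6.04 and 5.71. Of all 24578 probes, 12950 were higher than WT in Arp8 KO. The medians in Arp5 KO and in the culture labelled Arp8 OE were 0.17 and 0.25. In each of these cultures 16 of the 20 probes were also higher than WT, so that count was not particular to Arp8 KO. These comparisons share the WT array. Against the culture labelled Arp8 OE, 16 probes were higher and 3 lower in Arp8 KO (median 0.35). In Arp5 KO 7 were higher and 12 lower than in that culture (median -0.02). HLA genes are near-identical in parts, so that a probe may read more than its own gene.

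**Figure D5:**
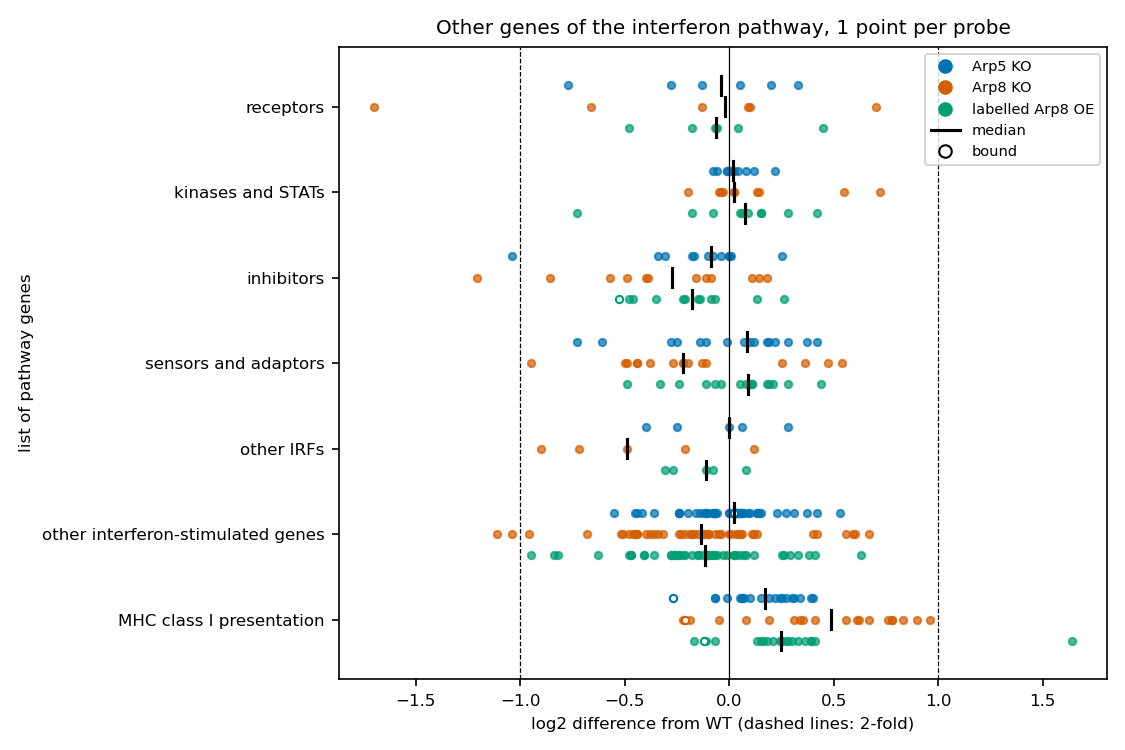
Log2 difference from WT of the other pathway genes, 1 point per probe, by list and culture; black bars are medians, open points are bounds and dashed lines mark 2-fold. In Arp8 KO (orange) the MHC class I list has a median of 0.49, and most points of all lists lie within 2-fold.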

How the data were processed

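Total RNA of 4 Nalm-6 cultures was hybridised to 1-color arrays, 1 per genotype, on 1 slide with 1 scan time. The deposited files are scanner output with linear intensity values. Per the file headers the software was Agilent Feature Extraction, version 10.10.1.1 (build hg19), and its processed intensity is background-subtracted but was not normalized between arrays. Their flags for spots well above background and outliers were used, and 0 spots were saturated. The deposited series matrix holds the same intensity times 1 factor per array (1.99 to 2.29) and was an alternative.

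Each processed signal was divided by its array's 75th percentile (647.4 to 739.6, over 43376 spots other than controls) and log2 was taken. Spots called outliers (69 to 76 per array) were left out and spots of a probe averaged. A probe was well above background if at least 50% of its spots were (55.8% to 57.4% of 41000 probes) and was kept if so on at least 1 array of a pair. A dim probe was raised to the lowest signal among probes well above background on that array where its own was lower, which gives a bound ("at least"). Of 28354 probes with a RefSeq accession, 27210 matched a symbol of the RefSeq table of GRCh38.p14. With 1 array per group, differences were described by size, with 2-fold as the line, and no p-value was computed. The arrays' number limits the precision. Adjacent spots had centers within 20 pixels.

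The members and lists were chosen with earlier results of these data known. Members were named with their values if past 2-fold between any pair of arrays or if their brightest probe was among the 5 brightest (a rank of probe signals, not of transcript amounts), with up to 2 examples of each role group. Alternatives were other scalings, normexp (offset 50, limma 3.58.1), other filters, gene means, exclusion of probes beside a bright spot, and the array labelled Arp8 OE as reference. The normexp alternative started from the median signal of each spot and ended with quantile normalization, so it changed more than the background step. Its offset is added before log2 is taken, which shrinks the differences of faint probes. The scripts (Python 3.11.15, R 4.3.3) were tested on simulated data.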

Additional observations from a re-analysis of the deposited data

How the results depend on the processing

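In total, 277 values were recomputed: 226 stayed within the limits set for them, 50 moved and 1 reversed. Scaling to the array median, quantile normalization and the series matrix moved none. With the array labelled Arp8 OE as reference in place of WT, member probes over 2-fold lower numbered 1 in Arp5 KO (3 against WT) and 2 in Arp8 KO (7 against WT), near the 3.28% and 3.78% of all probes, those over 2-fold higher in Arp8 KO 0 (1 against WT), and the Arp5 KO difference of OAS2 probe A_24_P343929 turned from -1.51 to 0.11. The 1 higher probe in Arp8 KO also fell to 0 with normexp and with gene means. The Arp8 KO median of -0.32 was -0.23 with normexp, -0.24 over probes well above background on all 4 arrays, and -0.23 without probes beside a bright spot. In the culture labelled Arp8 OE the 2 lower probes became 1 with normexp, 1 without probes beside a bright spot, and 5 without a filter or floor. Of 199 values of single genes 39 moved. The offset of normexp shrinks differences of faint probes by its arithmetic. The causes of the moves were not tested. No paired analysis was possible because each group holds replicate 1 only, and no culture could be left out for the same reason. Signal over background limits the dim probes of IFI44L, PARP14, SAMD9, IFIT2, OASL, RSAD2 and IFITM1.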
